A study of Mus musculus with 20 samples.

Results

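The collagen chain genes of the mouse liver were examined as a family. They were taken by name, as every gene whose symbol reads Col, a number, a and a number, such as *Col1a1*, and 44 of the 25444 gene loci in the tables met this rule. The livers came from 20 untreated mice of 20 weeks of age, with 5 females and 5 males of each of the inbred strains C57BL/6N (B6) and C3H/HeN (C3), and each liver gave 1 strand-specific library of total RNA without ribosomal RNA. No allele was engineered and no agent was given, and all mice had the same diets. Female and male mice lived in separate rooms, so a difference between the sexes cannot be told apart from a difference between rooms.

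Collagens are proteins of 3 chains wound into a triple helix, and each gene encodes 1 chain. Fibrillar collagens form the fibers of connective tissue, network collagens form the sheet of basement membranes, and the remaining types sit on fibers, join cells to the matrix or cross the cell membrane. In the liver, stellate cells and portal fibroblasts are known as the main makers of fibrillar collagen, and the liver scars when they make too much of it. In bulk tissue, fewer cells of a type and less RNA per cell cannot be told apart.

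The promoters of 5 members on which the results turn are shown first, because the first 4 were called in at least 2 of the 4 comparisons, with fold changes among the larger ones, and the fifth starts beside a partner gene. Each runs 5′ to 3′ on the strand of its gene, over the 250 bases before the transcription start and the 50 bases from it, and is taken from RefSeq (GRCm38.p6) and found unchanged at 1 place in mm9, the build of the tables. Capitals mark the CCAAT box (letters CCAAT), the GC box (letters GGGCGG) and the core to which STAT5 binds (letters TTCNNNGAA), searched on both strands. Of the 32851 mouse promoters of the same length in the table, 37.4% held CCAAT, 35.7% held GGGCGG, 8.30% held TTCNNNGAA and 13.6% held TATAAA, which none of the 5 windows holds.
Col5a3 (mm9 chr9:20619462-20619761, minus strand): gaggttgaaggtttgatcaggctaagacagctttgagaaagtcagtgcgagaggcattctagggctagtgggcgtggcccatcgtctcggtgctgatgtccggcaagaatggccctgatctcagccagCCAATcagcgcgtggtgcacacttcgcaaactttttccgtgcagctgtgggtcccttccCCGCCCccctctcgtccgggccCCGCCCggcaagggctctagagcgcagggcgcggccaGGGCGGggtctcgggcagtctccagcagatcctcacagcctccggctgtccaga
Col27a1 (mm9 chr4:62876196-62876495, plus strand): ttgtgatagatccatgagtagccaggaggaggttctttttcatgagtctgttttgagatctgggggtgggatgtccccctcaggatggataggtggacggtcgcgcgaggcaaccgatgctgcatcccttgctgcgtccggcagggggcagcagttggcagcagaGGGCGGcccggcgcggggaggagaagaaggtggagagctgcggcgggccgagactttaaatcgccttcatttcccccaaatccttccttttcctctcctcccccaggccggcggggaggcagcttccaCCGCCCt
Col6a5 (mm9 chr9:105862925-105863224, minus strand): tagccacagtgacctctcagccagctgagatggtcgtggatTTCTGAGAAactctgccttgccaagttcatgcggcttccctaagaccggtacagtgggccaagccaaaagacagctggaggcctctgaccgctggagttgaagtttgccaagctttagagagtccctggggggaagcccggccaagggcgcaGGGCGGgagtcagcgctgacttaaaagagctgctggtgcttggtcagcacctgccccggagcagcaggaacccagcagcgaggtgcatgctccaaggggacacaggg
Col6a6 (mm9 chr9:105730366-105730665, minus strand): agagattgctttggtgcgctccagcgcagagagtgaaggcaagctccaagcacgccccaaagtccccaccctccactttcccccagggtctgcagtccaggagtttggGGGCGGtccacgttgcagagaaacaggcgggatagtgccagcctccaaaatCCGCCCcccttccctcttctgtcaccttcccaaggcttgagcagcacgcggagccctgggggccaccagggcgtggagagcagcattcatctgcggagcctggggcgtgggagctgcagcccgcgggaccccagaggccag
Col4a1 (mm9 chr8:11312777-11313076, minus strand): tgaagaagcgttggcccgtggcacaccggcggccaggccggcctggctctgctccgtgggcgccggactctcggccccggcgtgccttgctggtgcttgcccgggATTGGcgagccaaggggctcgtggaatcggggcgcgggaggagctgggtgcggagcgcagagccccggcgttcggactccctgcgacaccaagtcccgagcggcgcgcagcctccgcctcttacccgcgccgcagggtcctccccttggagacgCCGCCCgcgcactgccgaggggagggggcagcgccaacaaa
A GC box was present in all 5 windows. CCAAT occurred in those of *Col5a3* (position -122 from the start) and *Col4a1*, and TTCNNNGAA in that of *Col6a5* alone, at position -209. Among the 35 members with a promoter in the table, 22 held GGGCGG, 13 held CCAAT, 5 held TATAAA and 2 held TTCNNNGAA. These matches are letters in the reference sequence of the B6 type, and binding was not measured.

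Total counts per library lay between 27370921 and 46835745, and collagen genes took between 0.0976% and 0.140% of them. The livers were sequenced in 3 pools, each group had 1 or 2 livers per pool, and depth followed the pool. Of the 44 members, 37 exceeded 3 counts in at least 1 library and 27 did so in all 20. *Col9a1* was not counted in any library, which allows at most 3 counts per library. A further 6 members stayed at or under 3 counts in every library (*Col2a1*, *Col9a2*, *Col10a1*, *Col11a1*, *Col19a1* and *Col26a1*), among them chains known from cartilage. The filter on low counts left 31 members to test, and 13 were not tested. Reads of *Col27a1* and *Col7a1* that overlap the microRNA genes within them were not counted, and those of *Col4a1* and *Col4a2* were told apart by strand. The reads of both strains were aligned to a genome of the B6 type, and what this does to counts of C3 livers was not tested.

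Levels between genes were compared in TPM, which divide each count by a gene length. *Col18a1*, whose chain carries endostatin at its end and lies in vessel walls and around hepatocytes, was the highest member, with a mean of 304 TPM over the 20 livers and a range from 212 to 380 TPM. It made up between 63.0% and 77.5% of the summed TPM of all members in a liver. *Col14a1*, a chain on the surface of fibers, followed with 32.2 TPM, and *Col4a1* (15.5), *Col3a1* (13.6), *Col5a3* (11.7), *Col27a1* (11.1) and *Col4a2* (10.2) were the others above 10 TPM. A further 11 members had a mean between 1 and 10 TPM, and 26 were below 1 TPM. Without *Col18a1*, the summed TPM of the members had a median of 133 and 134 in females and males of B6, and of 114 and 129 in those of C3.

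**Figure D1:**
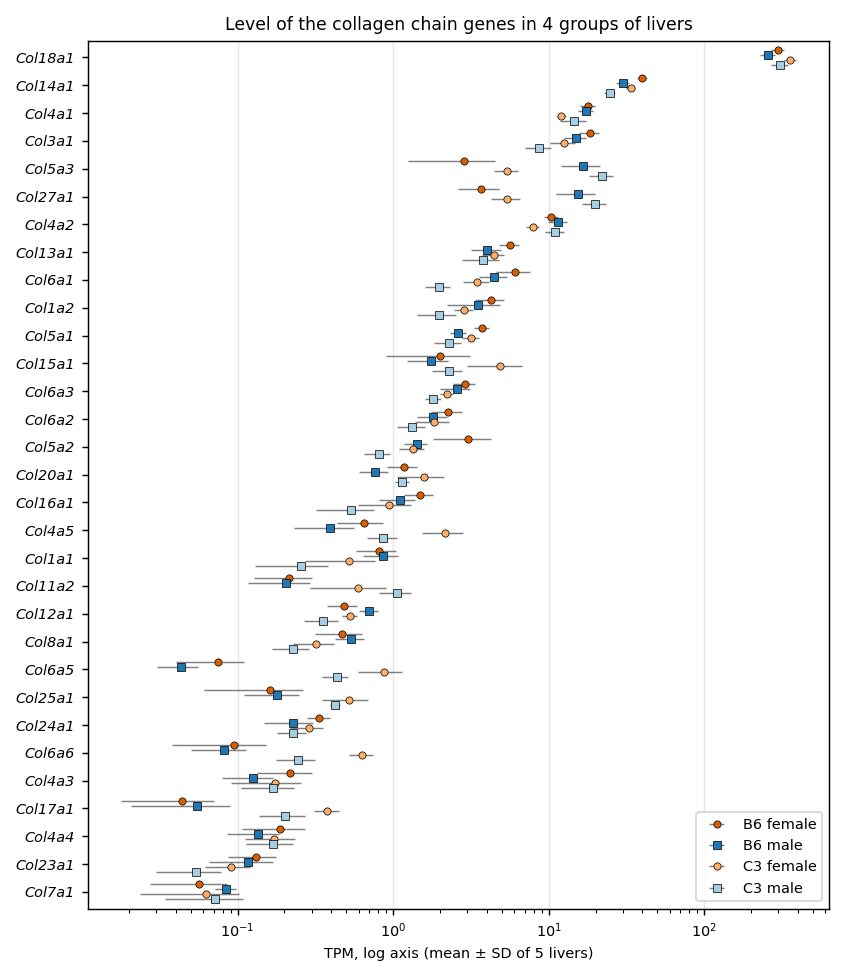
Level of the 31 tested collagen genes in TPM on a log axis, ordered by the mean over 20 livers. Points are group means and bars the SD of 5 livers, with B6 in dark and C3 in light colors, females as circles and males as squares. *Col18a1* sits far to the right of all others, and *Col5a3* and *Col27a1* are split by sex.

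Expression was compared between females and males of each strain, and between C3 and B6 in each sex. A gene was called sex-biased or strain-biased when edgeR's quasi-likelihood test gave an adjusted p under 0.001 over all 13704 tested genes, with a fold change beyond 0.5 on the log2 scale. Calls are those of this fit unless another tool is named, and glmTreat, an alternative, tests directly for a change beyond 0.5 and was read at an adjusted p under 0.05. Fold changes are given as log2 of female over male or of C3 over B6, with the standard error, and the values of single livers in CPM, counts scaled to the TMM-normalized size of the library, in the order of replicates 1 to 5. In B6, 3 of 31 members were sex-biased, against 6.34% of all tested genes, and in C3 the count was 5 of 31, against 6.90% of all tested genes. In females, 9 of 31 members were strain-biased, against 9.40% of all tested genes, and in males 8 of 31, against 9.64%. By direction, 8 of 31 members in females (25.8%) and 5 of 31 in males (16.1%) were called higher in C3. Among all tested genes, 4.63% and 4.09% were called higher in C3. The median log2 fold change of the members was 0.16 and 0.35 for sex in B6 and C3 and -0.18 and -0.08 for strain in females and males, while that of all tested genes was 0.00, 0.01, 0.02 and 0.01. All 25 of these calls kept their direction within each of the 3 pools, where each group has too few livers for a test.

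**Figure D2:**
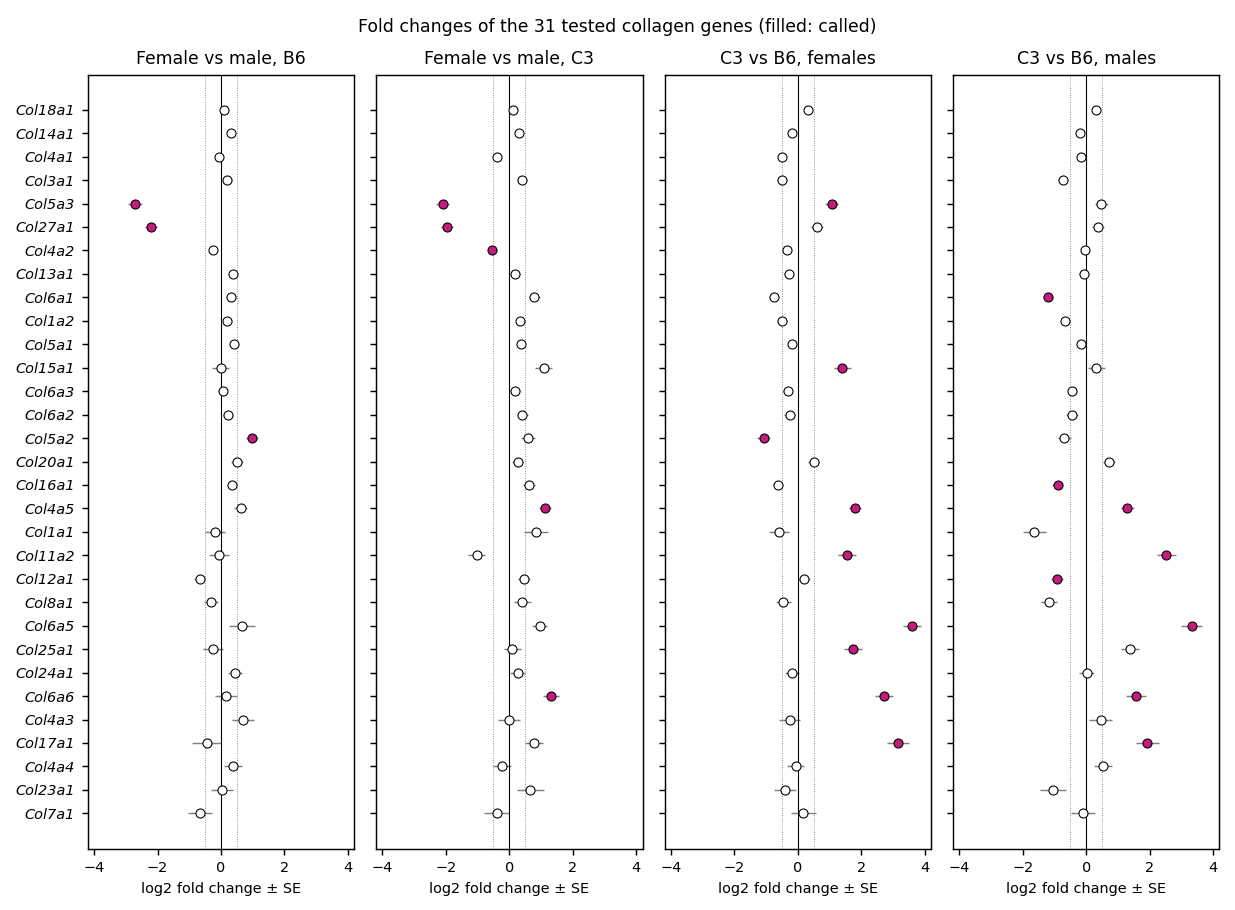
Log2 fold change with its standard error for the 31 tested collagen genes in the 4 comparisons, ordered as in the plot of levels. Filled points were called, and dotted lines mark a log2 fold change of 0.5 in either direction. *Col5a3* and *Col27a1* lie far to the left in both sex comparisons, and *Col6a5*, *Col6a6* and *Col17a1* to the right in both strain comparisons.

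Among the 11 fibrillar genes, 9 were tested, and the sexes differed most in *Col5a3* and *Col27a1*, both male-biased in both strains. *Col5a3* encodes the third chain of type V collagen, which regulates the width of fibers and is known from adipose tissue, muscle and pancreatic islets. It stood at 6.27, 9.39, 15.4, 4.15 and 4.58 CPM in B6 females and 58.2, 32.5, 64.1, 54.8 and 38.2 CPM in B6 males. In C3 the values were 16.5, 19.1, 13.2, 16.3 and 12.6 CPM in C3 females and 68.6, 73.9, 49.7, 71.1 and 81.0 CPM in C3 males. Every male liver was above every female liver, in both strains. The mean was 7.95 ± 4.63 CPM in B6 females against 49.6 ± 13.6 CPM in B6 males (SD, n = 5 each), and 15.5 ± 2.64 against 68.9 ± 11.7 CPM in C3. The log2 fold change was -2.70 ± 0.22, adjusted p = 3.8e-08 in B6 and -2.10 ± 0.21, adjusted p = 6.5e-07 in C3 (edgeR), which is 6.49-fold and 4.30-fold higher in males. Its promoter, shown above, held both a CCAAT box and GC boxes. Between the strains, *Col5a3* was higher in C3 females than in B6 females (1.07 ± 0.22, adjusted p = 0.00088, edgeR), but the 2 groups overlapped and the call was lost in 15 of the 20 fits that left out 1 liver (log2 fold change 0.95 to 1.35, adjusted p up to 0.0038), and with DESeq2's size factors, with upper quartile normalization, without the pool term, in the fit of the 2 groups alone, with limma on log2(TPM + 1) and with limma on log2(TPM + 0.1). In males the strain difference was 0.47 ± 0.20, adjusted p = 0.081 (edgeR), and no call was made.

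*Col27a1* encodes the single chain of type XXVII collagen, a fibrillar type best known from cartilage growth. Its levels were 8.98, 9.61, 18, 16.4 and 11.0 CPM in B6 females and 49.7, 48.0, 64.1, 43.0 and 85.6 CPM in B6 males. C3 livers had 18, 15.1, 15.8, 26.7 and 21.9 CPM in C3 females and 69.5, 93.3, 63.0, 74.0 and 90.2 CPM in C3 males. Again no female liver reached the lowest male liver of its strain. The log2 fold change was -2.21 ± 0.19, adjusted p = 1e-07 in B6 and -1.96 ± 0.19, adjusted p = 4.5e-07 in C3 (edgeR), 4.63-fold and 3.90-fold higher in males. The sex calls of *Col5a3* and *Col27a1* were kept in all alternative fits. Strain differences of *Col27a1* were 0.61 ± 0.19, adjusted p = 0.019 in females and 0.37 ± 0.19, adjusted p = 0.13 in males (edgeR), without a call.

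*Col5a1*, which encodes the main chain of type V collagen, did not follow *Col5a3*. Its log2 fold change was 0.40 ± 0.10, adjusted p = 0.0069 in B6 and 0.38 ± 0.11, adjusted p = 0.0099 in C3 (edgeR), on the female side and below the size for a call. In TPM, *Col5a3* was between 0.345 and 1.56 times *Col5a1* in B6 females and between 4.18 and 7.64 times in B6 males. In C3 the same ratio ran from 1.27 to 2.13 in females and from 8.44 to 11.4 in males. In each strain, then, the range of males lay above that of females.

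*Col5a2*, the second chain of type V collagen, was female-biased in B6. It had 8.83, 14.8, 5.70, 7.67 and 8.12 CPM in B6 females and 4.84, 3.76, 4.97, 5.38 and 3.93 CPM in B6 males. In C3 it had 3.87, 3.75, 3.65, 5.86 and 3.93 CPM in C3 females and 2.51, 2.19, 2.46, 3.06 and 3.46 CPM in C3 males. Females lay above males in both strains without overlap, and B6 females were the highest group. The log2 fold change was 0.97 ± 0.19, adjusted p = 0.00093 in B6 and 0.58 ± 0.21, adjusted p = 0.037 in C3 (edgeR), so that only B6 passed, but the difference between the strains was itself not called (-0.39 ± 0.29, adjusted p = 0.56, edgeR). The B6 call was lost in 15 of the 20 fits without 1 liver (0.75 to 1.11, adjusted p up to 0.0034), and with glmTreat, without the pool term, with the replicate block and in the fit of the 2 groups alone. C3 females were lower than B6 females (-1.08 ± 0.20, adjusted p = 0.00031, edgeR), with an overlap of 1 C3 liver, 5.86 CPM, with the lowest B6 liver, 5.70 CPM. The strain call in females was lost without C3 female 1, 2, 3 or 5 (log2 fold change -1.27 to -0.87 over the 20 fits without 1 liver, edgeR adjusted p up to 0.0018), and also in the fit of the 2 groups alone. In males the strain difference was -0.69 ± 0.21, adjusted p = 0.017 (edgeR), with no overlap and no call.

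The genes of the abundant fiber collagens, *Col1a1* and *Col1a2* for type I and *Col3a1* for type III, gave no call in any comparison by this edgeR fit, while DESeq2 called all 3 between the strains in males. *Col3a1* stood at 46.1, 44.9, 45.2, 58.3 and 36.7 CPM in B6 females and 44.9, 45.8, 42.4, 40.9 and 30.1 CPM in B6 males. C3 livers had 34.4, 32.6, 31.3, 42.5 and 23.7 CPM in C3 females and 26.7, 21.0, 20.0, 31.4 and 25.5 CPM in C3 males. The groups overlapped in all 4 comparisons. *Col1a1* had 2.58, 2.05, 1.85, 3.06 and 1.36 CPM in B6 females and 2.21, 3.27, 2.74, 2.64 and 1.60 CPM in B6 males. In C3 *Col1a1* had 2.18, 0.776, 1.28, 2.31 and 0.810 CPM in C3 females and 0.580, 0.691, 0.419, 1.43 and 0.785 CPM in C3 males. In males, the C3 livers were all below the B6 livers for *Col1a1*, and their log2 fold change was -1.63 ± 0.36, adjusted p = 0.0017 (edgeR). For *Col3a1* it was -0.72 ± 0.16, adjusted p = 0.0014 and for *Col1a2* -0.65 ± 0.15, adjusted p = 0.003 (edgeR). Limma on log2(TPM + 0.1) and the replicate block called *Col1a1* and *Col3a1*, glmTreat called *Col1a1*, and upper quartile normalization, the fit of the 2 groups alone and limma on log2(TPM + 1) called *Col3a1*. All 3 would pass an adjusted p of 0.05 without a limit on size. Under that looser rule, 18 of 31 members passed in males (34.5% of all tested genes), 18 in females (32.9%), and 9 and 16 for sex in B6 and C3 (34.6% and 40.0%). In males, 10 of 31 members were lower in C3 males than in B6 males, against 17.5% of all tested genes, and 8 were higher, against 17.0%.

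*Col11a2*, a chain that cartilage uses in type XI collagen, was the fibrillar gene with a strain bias in both sexes. It was low in B6, with 0.747, 0.985, 0.640, 0.434 and 0.381 CPM in B6 females and 0.545, 0.520, 1.18, 0.543 and 0.522 CPM in B6 males. In C3 it had 1.49, 3.35, 1.01, 1.41 and 2.04 CPM in C3 females and 4.60, 2.74, 3.36, 4.35 and 2.93 CPM in C3 males. All C3 livers were above those of B6 of the same sex, B6 male 3 at 1.18 CPM being the highest of its group. C3 was higher by 1.56 ± 0.29, adjusted p = 0.00037 in females and by 2.53 ± 0.29, adjusted p = 1.6e-06 in males (log2 scale, edgeR), 2.95-fold and 5.78-fold. The strain call in females was lost without B6 female 1, 3, 4 or 5 or without C3 female 2 or 5 (log2 fold change 1.29 to 1.81 over the 20 fits without 1 liver, edgeR adjusted p up to 0.0025), and also without the pool term, with the replicate block, in the fit of the 2 groups alone, with limma on log2(TPM + 1) and with limma on log2(TPM + 0.1). The call in males was kept in all alternative fits. *Col24a1* was within 0.45 on the log2 scale in all 4 comparisons and was not called.

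**Figure D3:**
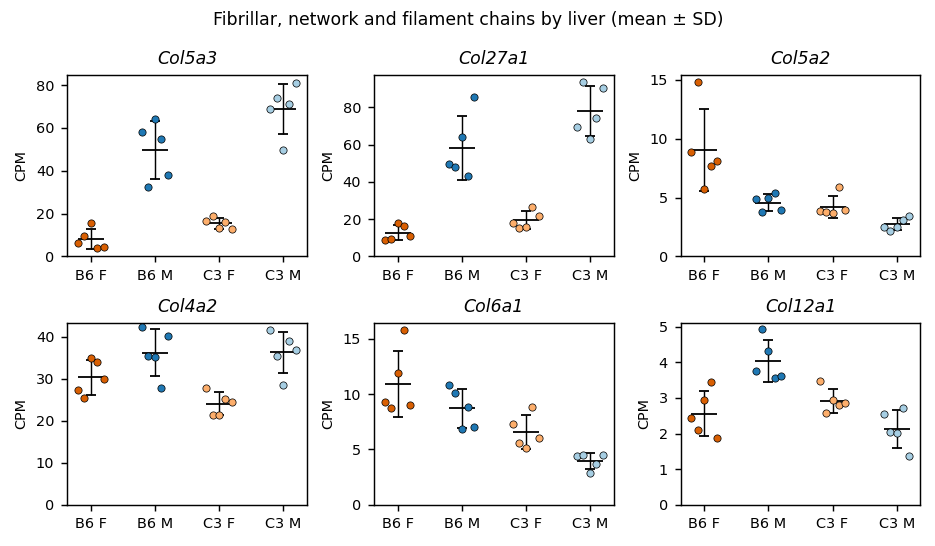
CPM of *Col5a3*, *Col27a1*, *Col5a2*, *Col4a2*, *Col6a1* and *Col12a1* in each liver, with a dot for each of 5 livers per group and the mean ± SD as a bar. Male livers lie above female livers for *Col5a3* and *Col27a1* in both strains, B6 females reach the highest values of *Col5a2*, and C3 males the lowest of *Col6a1*.

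The basement membrane chains of type IV collagen come from 3 gene pairs, each arranged head to head. *Col4a1* and *Col4a2*, which encode the chains found in nearly every basement membrane, overlap by 22 bases at their starts on chromosome 8, and their promoter windows share 78 bases. *Col4a2* had 27.4, 25.4, 35.0, 34.1 and 30 CPM in B6 females and 42.3, 35.4, 35.2, 27.9 and 40.3 CPM in B6 males. C3 livers had 27.8, 21.5, 21.4, 25.1 and 24.6 CPM in C3 females and 41.7, 35.4, 28.6, 39.0 and 36.9 CPM in C3 males. C3 females were all below C3 males, whereas B6 females and males overlapped. In log2 terms the difference was -0.54 ± 0.09, adjusted p = 0.00027 in C3, a call close to the size limit, and -0.25 ± 0.09, adjusted p = 0.04 in B6 (edgeR). The sex call in C3 was lost without C3 female 1 or without C3 male 4 (log2 fold change -0.63 to -0.41 over the 20 fits without 1 liver, edgeR adjusted p up to 0.0015). It was also lost on the TPM scale (-0.41 with a pseudocount of 0.1, -0.37 with 1) and with upper quartile normalization (-0.47), and was not made with glmTreat, without the pool term or in the fit of the 2 groups alone.

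*Col4a1* gave no call by this edgeR fit but stood at the limit in 1 comparison, and several other fits called it there. Its values were 58.6, 53.4, 56.8, 55.3 and 43.4 CPM in B6 females and 60.8, 53.5, 64.9, 49.8 and 51.8 CPM in B6 males. In C3 they were 38.5, 39.4, 38.9, 37.6 and 34.8 CPM in C3 females and 56.6, 50.6, 39.2, 60.9 and 41.5 CPM in C3 males. All C3 females lay below all B6 females, and the log2 fold change there was -0.50 ± 0.10, adjusted p = 0.00066 (edgeR), just short of the required size. DESeq2, both limma fits, DESeq2's size factors, upper quartile normalization and the fit of the 2 groups alone made this call. The sex difference in C3 was -0.40 ± 0.10, adjusted p = 0.0044 (edgeR), in the direction of *Col4a2*. The TPM ratio of *Col4a1* to *Col4a2* had a median of 1.58 and 1.47 in B6 females and males, and of 1.46 and 1.34 in those of C3.

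*Col4a5*, an X-linked gene whose loss is known to cause Alport syndrome, was higher in C3 than in B6 in both sexes. B6 livers had 1.69, 2.61, 2.19, 2.01 and 0.980 CPM in B6 females and 1.28, 0.551, 1.81, 1.60 and 0.982 CPM in B6 males. C3 livers had 6.11, 9.15, 7.43, 6.01 and 4.35 CPM in C3 females and 2.51, 2.59, 2.25, 3.44 and 3.60 CPM in C3 males. No C3 liver fell within the B6 livers of its sex. C3 over B6 gave a log2 fold change of 1.80 ± 0.19, adjusted p = 4.2e-07 in females and 1.29 ± 0.21, adjusted p = 8.2e-05 in males (edgeR), 3.48-fold and 2.45-fold. The call in males was lost without the pool term (1.19, adjusted p = 0.0046, edgeR) and, by size, with limma on log2(TPM + 1) (0.45, adjusted p = 0.00045), while its adjusted p stayed at or below 0.0046 over all 32 alternatives. C3 females were also above C3 males without overlap (1.13 ± 0.18, adjusted p = 0.00016, edgeR), while the sexes overlapped in B6 (0.62 ± 0.21, adjusted p = 0.027, edgeR) and the interaction was not called (0.51 ± 0.28, adjusted p = 0.39, edgeR). The sex call in C3 was lost without C3 male 4 (log2 fold change 1.05 to 1.19 over the 20 fits without 1 liver, edgeR adjusted p up to 0.0013), and also without the pool term. Its head-to-head neighbor *Col4a6*, 1342 bases away, had at most 13 counts in a library and was not tested. *Col4a3* and *Col4a4*, which share chains with *Col4a5* in the kidney, lie 71 bases apart and were not called in any comparison, with log2 fold changes between -0.25 and 0.70.

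The beaded filaments of type VI collagen lie between fibers and basement membranes. The 3 chains of the common filament are encoded by *Col6a1*, *Col6a2* and *Col6a3*, and the chains of *Col6a4*, *Col6a5* and *Col6a6* can replace that of *Col6a3*. *Col6a5* and *Col6a6* were strain-biased in both sexes, both higher in C3. *Col6a5* was close to absent in B6, with 0.315, 0.362, 0.506, 0.325 and 0.0817 CPM in B6 females and 0.256, 0.153, 0.220, 0.222 and 0.123 CPM in B6 males. These stand for 3 to 18 counts in females and 4 to 9 in males. C3 livers had 4.10, 3.17, 3.20, 6.16 and 2.67 CPM in C3 females and 2.32, 1.61, 1.68, 2.45 and 2.28 CPM in C3 males. The lowest C3 liver was above 3 times the highest B6 liver. The fitted difference was 3.61 ± 0.28, adjusted p = 1e-08 in females and 3.32 ± 0.33, adjusted p = 2.1e-07 in males (edgeR), 12.2-fold and 10-fold, and both held in every fit that left out 1 liver, the male call being lost with limma on log2(TPM + 1).

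*Col6a6* lies on the same strand of chromosome 9, 27984 bases downstream of the end of *Col6a5*. B6 livers had 0.275, 0.402, 0.169, 0.623 and 0.136 CPM in B6 females and 0.449, 0.306, 0.367, 0.222 and 0.153 CPM in B6 males. In C3 the values were 2.84, 2.30, 1.93, 2.19 and 1.86 CPM in C3 females and 1.16, 0.720, 0.629, 0.974 and 1.21 CPM in C3 males. Each C3 liver exceeded the B6 livers of its sex, and C3 females exceeded C3 males. C3 over B6 gave a log2 fold change of 2.73 ± 0.28, adjusted p = 4.4e-07 in females and 1.57 ± 0.32, adjusted p = 0.00084 in males (edgeR), 6.63-fold and 2.97-fold. Between the sexes it was 1.32 ± 0.26, adjusted p = 0.00077 in C3 and 0.16 ± 0.35, adjusted p = 0.76 in B6, with an interaction of 1.16 ± 0.44, adjusted p = 0.18 (edgeR). The call in males was lost in 17 of the 20 fits without 1 liver (1.44 to 1.69, adjusted p up to 0.0043), and the sex call in C3 in 13 of 20 (1.22 to 1.38, adjusted p up to 0.0045), and both without the pool term, with the replicate block and with limma on log2(TPM + 1). The third neighbor, *Col6a4*, lies 29674 bases from *Col6a5* and had at most 4 counts in a library. The promoters of *Col6a5* and *Col6a6* shown above come from the B6 type of genome, so they do not give the C3 sequence.

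**Figure D4:**
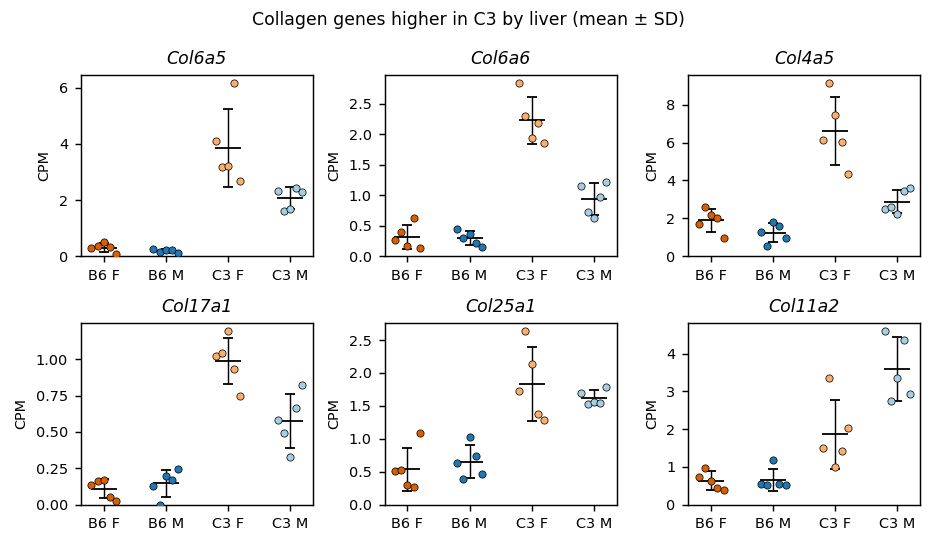
CPM of *Col6a5*, *Col6a6*, *Col4a5*, *Col17a1*, *Col25a1* and *Col11a2* in each liver, with a dot for each of 5 livers per group and the mean ± SD as a bar. C3 livers of either sex lie above the B6 livers of that sex for all 6 genes.

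*Col6a1* went the other way, and C3 males were the lowest group. It had 9.28, 8.76, 11.9, 15.8 and 9.01 CPM in B6 females and 10.8, 10.1, 6.83, 8.81 and 7.02 CPM in B6 males. C3 livers had 7.30, 5.58, 5.10, 8.83 and 6.00 CPM in C3 females and 4.41, 4.46, 2.85, 3.73 and 4.53 CPM in C3 males. B6 males were all above C3 males. EdgeR gave a log2 fold change of -1.20 ± 0.17, adjusted p = 2e-05 in males and -0.74 ± 0.16, adjusted p = 0.0014 in females, where the groups overlapped and the adjusted p missed the threshold. DESeq2, limma on log2(TPM + 1) and the replicate block did call the females. In males the call was kept in all alternative fits, with an adjusted p of at most 0.0012, that of glmTreat. *Col6a2* and *Col6a3* stood at -0.44 ± 0.18, adjusted p = 0.071 and -0.43 ± 0.14, adjusted p = 0.026 in males (edgeR), without a call. The TPM ratio of *Col6a1* to *Col6a2* ran from 2.26 to 3.12 in females and 2.03 to 3.13 in males of B6, and from 1.77 to 2.06 and 1.42 to 1.56 in those of C3. All C3 males were thus below every other group in the share of *Col6a1*.

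Of the 9 genes of chains that bind to fibers, 4 were tested and 2 were called, both in males and both lower in C3. In males, 5.55% of all tested genes were called lower in C3. *Col14a1* and *Col20a1*, also tested, had log2 fold changes of -0.19 and 0.73 there, without a call. *Col12a1* encodes a chain that links fibers in tendon, ligament and other dense tissue. Its values were 2.44, 2.11, 2.93, 3.44 and 1.88 CPM in B6 females and 3.75, 4.93, 4.31, 3.55 and 3.62 CPM in B6 males. C3 livers had 3.47, 2.57, 2.93, 2.79 and 2.85 CPM in C3 females and 2.55, 2.04, 2.01, 2.71 and 1.36 CPM in C3 males. B6 males were above both B6 females and C3 males without overlap. C3 over B6 gave a log2 fold change of -0.92 ± 0.18, adjusted p = 0.00067 in males against 0.20 ± 0.18, adjusted p = 0.44 in females (edgeR). The strain call in males was lost without B6 female 1 or 3 or without B6 male 1, 2, 3 or 4 or without C3 female 3 or 5 or without C3 male 2, 3 or 5 (log2 fold change -1.09 to -0.80 over the 20 fits without 1 liver, edgeR adjusted p up to 0.0029), and also in the fit of the 2 groups alone and with limma on log2(TPM + 1). The sex difference was -0.66 ± 0.17, adjusted p = 0.0072 in B6 and 0.45 ± 0.18, adjusted p = 0.059 in C3, and their difference, the sex-by-strain interaction, was 1.11 ± 0.25, adjusted p = 0.02 (edgeR). It was the only 1 of 31 members with an adjusted interaction p under 0.05, which 2.96% of all tested genes reached, and it missed the threshold of 0.001. No member was called in the interaction by edgeR, against 0.401% of all tested genes, while 8 of 31 members had an unadjusted p under 0.05, against 16.1% of all tested genes. DESeq2 and both limma fits on TPM also made no call, with 9 of 31 members under an unadjusted p of 0.05 in each limma fit and 9 by DESeq2, which ran without the filter on low counts.

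*Col16a1*, a minor chain of fibers and basement membranes, was lower in C3 males than in B6 males. It had 4.17, 4.00, 3.44, 3.58 and 2.34 CPM in B6 females and 3.17, 2.29, 3.58, 3.08 and 1.84 CPM in B6 males. C3 livers had 1.82, 3.24, 3.09, 1.47 and 1.95 CPM in C3 females and 1.47, 1.12, 0.689, 2.26 and 1.64 CPM in C3 males. The ranges of the male groups overlapped, between 1.84 and 2.26 CPM. On the log2 scale the change was -0.90 ± 0.17, adjusted p = 0.00051 in males and -0.63 ± 0.16, adjusted p = 0.0052 in females (edgeR). The strain call in males was lost without B6 male 1, 2 or 3 or without C3 male 1, 2 or 3 (log2 fold change -1.03 to -0.77 over the 20 fits without 1 liver, edgeR adjusted p up to 0.0038), and also without the pool term, with the replicate block, in the fit of the 2 groups alone and with limma on log2(TPM + 1). *Col14a1*, the second highest member, had 121.3, 116.6, 123.1, 122.9 and 99.7 CPM in B6 females and 89.3, 93.0, 107.6, 97.3 and 86.7 CPM in B6 males. In C3 *Col14a1* had 92.6, 102.0, 106.9, 106.4 and 108.1 CPM in C3 females and 88.8, 85.4, 73.5, 86.5 and 76.5 CPM in C3 males. Females and males did not overlap in C3, and did in B6 through B6 female 5, at 99.7 CPM. The log2 fold change of *Col14a1* for sex was 0.30 ± 0.07, adjusted p = 0.0027 in B6 and 0.31 ± 0.07, adjusted p = 0.0025 in C3 (edgeR), below the size for a call, as were those of *Col20a1*. Between the strains, *Col20a1* was higher in C3 males than in B6 males without overlap (0.73 ± 0.19, adjusted p = 0.0049, edgeR). In females the strain difference of *Col20a1* was 0.50 ± 0.17, adjusted p = 0.031 (edgeR), and neither was called by this fit.

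*Col15a1* and *Col18a1* encode the multiplexins, chains of basement membranes whose ends are cut off as endostatin-like fragments. *Col15a1* was higher in C3 than in B6 females. It had 2.34, 2.45, 8.09, 7.70 and 3.76 CPM in B6 females and 5.10, 6.00, 2.57, 5.16 and 3.90 CPM in B6 males. C3 livers had 20.2, 8.18, 9.78, 14.1 and 9.58 CPM in C3 females and 5.76, 8.52, 5.63, 5.61 and 5.53 CPM in C3 males. The C3 females lay above the B6 females, by as little as 8.18 against 8.09 CPM, and the males overlapped. In log2 terms the difference was 1.41 ± 0.26, adjusted p = 0.00039 in females and 0.32 ± 0.27, adjusted p = 0.39 in males, and the interaction was 1.09 ± 0.38, adjusted p = 0.14 (edgeR). The strain call in females was lost without B6 female 1, 2 or 5 or without C3 female 1, 3 or 4 (log2 fold change 1.26 to 1.62 over the 20 fits without 1 liver, edgeR adjusted p up to 0.0024), and also without the pool term. *Col18a1* had 756.3, 815.9, 896.4, 758.8 and 669.2 CPM in B6 females and 794.3, 609.0, 754.3, 761.5 and 700.3 CPM in B6 males. C3 livers had 1044.5, 999.7, 1016.1, 922.3 and 893.3 CPM in C3 females and 864.8, 839.9, 807.6, 1014.4 and 1038.0 CPM in C3 males. Its log2 fold change of C3 over B6 was 0.33 ± 0.06, adjusted p = 0.00042 in females and 0.32 ± 0.06, adjusted p = 0.00048 in males (edgeR), so the adjusted p passed but the size did not.

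The 4 genes of collagens that cross the cell membrane were all tested. *Col17a1*, the gene of an anchor protein of skin and other epithelia, was at the limit of detection in B6, with 0.138, 0.161, 0.169, 0.0542 and 0.0272 CPM in B6 females and 0.128, 0, 0.196, 0.173 and 0.245 CPM in B6 males. This corresponds to 1 to 8 counts in females and 0 to 8 in males. C3 livers had 1.02, 1.04, 1.19, 0.931 and 0.750 CPM in C3 females and 0.580, 0.490, 0.330, 0.665 and 0.821 CPM in C3 males, or 11 to 53 counts. All C3 livers were above all B6 livers. The fitted difference was 3.15 ± 0.35, adjusted p = 9.6e-07 in females and 1.93 ± 0.37, adjusted p = 0.00047 in males (edgeR), and the call in females was lost with limma on log2(TPM + 1). The strain call in males was lost without B6 male 1, 3 or 4 or without C3 male 2, 4 or 5 (log2 fold change 1.69 to 2.28 over the 20 fits without 1 liver, edgeR adjusted p up to 0.0031), and also without the pool term, with the replicate block, in the fit of the 2 groups alone and with limma on log2(TPM + 1). *Col25a1*, known from neurons and muscle, had 0.511, 0.523, 0.303, 0.271 and 1.09 CPM in B6 females and 0.641, 0.398, 1.03, 0.740 and 0.460 CPM in B6 males. In C3 *Col25a1* had 1.72, 2.64, 2.13, 1.38 and 1.29 CPM in C3 females and 1.70, 1.53, 1.56, 1.54 and 1.78 CPM in C3 males. C3 livers were above B6 livers of their sex without overlap. The log2 fold change of *Col25a1* was 1.73 ± 0.29, adjusted p = 0.00011 in females, a call, and 1.38 ± 0.29, adjusted p = 0.0013 in males (edgeR), where the adjusted p missed the threshold but DESeq2 and glmTreat made a call. In females *Col25a1* was not called in the fit of the 2 groups alone and with limma on log2(TPM + 1).

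*Col13a1*, known from the junction of nerve and muscle, was the highest of the membrane genes and was not called in any comparison. It had 7.82, 6.89, 8.02, 7.45 and 9.91 CPM in B6 females and 8.05, 4.31, 6.69, 5.75 and 6.44 CPM in B6 males. C3 livers had 7.96, 7.20, 6.07, 6.76 and 5.16 CPM in C3 females and 6.19, 5.10, 4.16, 6.94 and 8.35 CPM in C3 males. The groups overlapped throughout, with log2 fold changes from -0.29 to 0.38. *Col23a1* was not called either. The remaining tested members were *Col7a1*, which anchors the skin, and *Col8a1*, a short chain of vessel walls. *Col8a1* was lower in C3 males than in B6 males without overlap (-1.17 ± 0.25, adjusted p = 0.0012, edgeR), just above the threshold of 0.001, and was called by DESeq2, glmTreat and limma on log2(TPM + 0.1). *Col7a1* had log2 fold changes between -0.67 and 0.17, none of them called.

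Genes whose chains share a triple helix or, for *Col1a1* and *Col3a1*, the same fibers were compared across the 20 livers. Values were log2 CPM with the means of group and pool removed. In all, 5 pairs were computed, with two-sided permutation tests of 100000 resamples and p adjusted over the 5. These values were shuffled over all 20 livers as if independent. Removing the means ties them together, so these p can be too small. Other gene pairs were not computed as a background, so a link of r to shared assembly was not tested. Pearson's r was 0.79 for *Col1a1* and *Col1a2* (adjusted p = 3.7e-05, permutation test) and Spearman's rho was 0.78 (adjusted p = 0.00018, permutation test). For *Col1a1* and *Col3a1*, r was 0.81 (adjusted p = 3.3e-05, permutation test) and rho 0.72 (adjusted p = 0.00076, permutation test). For *Col6a1* and *Col6a2*, r was 0.84 (adjusted p = 3.3e-05, permutation test) and rho 0.78 (adjusted p = 0.00018, permutation test). For *Col4a1* and *Col4a2*, whose starts share a promoter window, r was 0.81 (adjusted p = 3.3e-05, permutation test) and rho 0.86 (adjusted p = 5e-05, permutation test).

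*Col5a1* and *Col5a2* gave another picture, with r = -0.0047 (adjusted p = 0.98, permutation test) and rho = 0.03 (adjusted p = 0.91, permutation test). After the 2 livers farthest from the median of the first gene were left out, r was 0.74, 0.72, 0.73 and 0.79 in the pairs in the order above and -0.011 for type V. Within pool 1 (8 livers) r was 0.90, 0.96, 0.94 and 0.73, and within pool 3 (7 livers) it was 0.72, 0.74, 0.36 and 0.96, so the type VI pair was weaker in pool 3. For type V the values within pools 1 and 3 were -0.15 and -0.51. Pool 2 held 5 livers, too few for a value. When the pool means were kept, r of *Col4a1* and *Col4a2* was 0.40 and its adjusted p rose to 0.094 (permutation test).

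**Figure D5:**
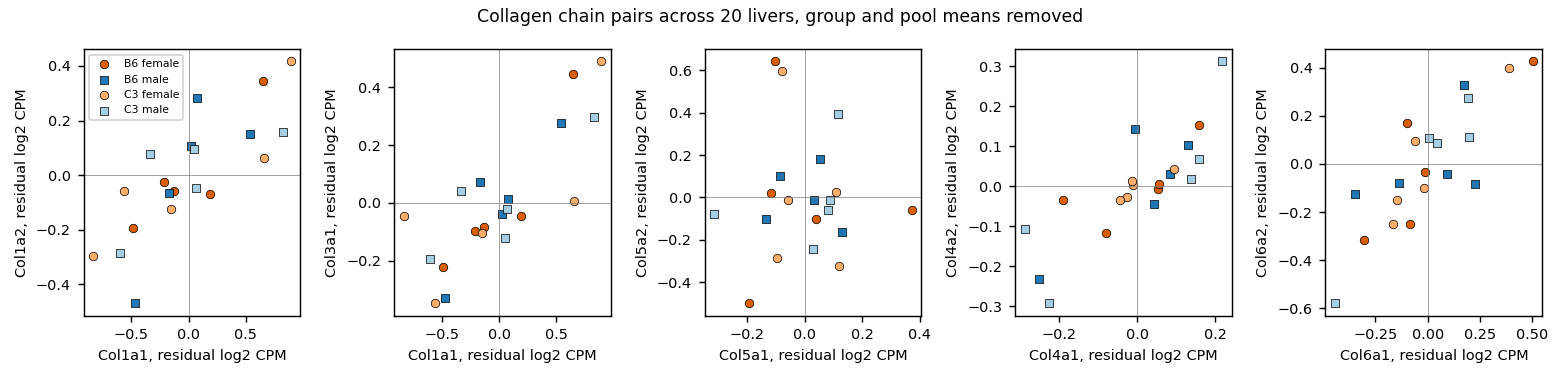
Residual log2 CPM of 5 pairs of collagen genes in 20 livers after the means of group and pool were removed, one point per liver, with colors and shapes for the groups. The type I, III, IV and VI pairs rise together, and the type V pair (*Col5a1*, *Col5a2*) does not.

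The genes that handle collagen were read in the same 4 comparisons, against the shares of all tested genes given above (6.34% and 6.90% for sex in B6 and C3, 9.40% and 9.64% for strain in females and males). Of 28 tested genes of collagen synthesis and cross-linking, 1 was called for sex in B6 (*Crtap*, a helper of proline hydroxylation, 0.60 ± 0.10, adjusted p = 0.00012, edgeR) and 1 in C3 (*Ppib*, a chaperone that turns prolines, -0.56 ± 0.11, adjusted p = 0.00089, edgeR). In females 2 were higher in C3 (*Sparc* and *Colgalt2*) and 2 lower (*Loxl4* and *Adamts2*). In males 4 were higher in C3 and 3 lower. *Loxl4*, an enzyme that cross-links collagen, showed the widest gap, -2.58 ± 0.40, adjusted p = 5.9e-05 in females and -3.16 ± 0.46, adjusted p = 2.7e-05 in males (edgeR), from 18.5 to 3.07 CPM and from 10.3 to 1.16 CPM. *Sparc*, which binds collagen in the matrix, stood at 0.63 ± 0.08, adjusted p = 2.8e-06 and 0.68 ± 0.08, adjusted p = 1.5e-06 (edgeR). In males *Colgalt1*, which adds galactose to collagen, was lower in C3 (-0.52 ± 0.05, adjusted p = 3.3e-07, edgeR). The median log2 fold change of the list was 0.15 and 0.14 for sex in B6 and C3 and -0.18 and -0.04 for strain in females and males, beside the medians of all genes given above.

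Of 11 tested genes of collagen breakdown, *Mmp14*, a membrane-bound collagenase, was female-biased in both strains (0.68 ± 0.13, adjusted p = 0.00062 in B6 and 0.67 ± 0.13, adjusted p = 0.00079 in C3, edgeR), and edgeR called no gene of this list for strain, with 6 of 11 at an unadjusted p under 0.05 in females and 7 of 11 in males, against 41.9% and 44.3% of all tested genes (DESeq2 called 1 and 0, limma none in either). Of 6 tested collagen receptors, edgeR called only *Lair1*, lower in C3 in females (-1.10 ± 0.14, adjusted p = 4.2e-06, edgeR) and males (-0.96 ± 0.14, adjusted p = 3.9e-05, edgeR). The median of these lists for sex in B6 and C3 was 0.27 and 0.18 for breakdown and 0.07 and 0.17 for receptors. For strain in females and males it was 0.08 and 0.14 for breakdown and -0.17 and -0.27 for receptors.

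Of 19 tested matrix glycoproteins and proteoglycans, 2 were female-biased in B6 (*Postn* and *Lum*) and 5 in C3 (*Hspg2*, *Fn1*, *Fbn1*, *Lama4* and *Postn*), all higher in females, against 3.23% and 4.11% of all tested genes. *Postn*, a protein that binds collagen, had 0.82 ± 0.11, adjusted p = 2.4e-05 and 0.62 ± 0.12, adjusted p = 0.00049 (edgeR). *Hspg2*, the perlecan of basement membranes, had 0.85 ± 0.09, adjusted p = 1.8e-06 in C3 and was also higher in C3 than in B6 females (0.58 ± 0.09, adjusted p = 6.9e-05, edgeR). *Lama5* and *Lamb1*, laminin chains, were lower in C3 in both sexes, *Lama5* by -1.46 ± 0.17, adjusted p = 2.5e-06 in females and -1.95 ± 0.19, adjusted p = 1.5e-07 in males (log2 scale, edgeR). The median of the list was 0.28 and 0.41 for sex and -0.11 and -0.19 for strain. Of 14 tested genes of the TGF-beta pathway, which drives collagen synthesis in scarring, edgeR called 1, *Tgfbr2*, lower in C3 males (-0.79 ± 0.07, adjusted p = 7.5e-08, edgeR). For sex, 8 of 14 in B6 and 5 in C3 had an unadjusted p under 0.05, against 44.4% and 49.0% of all tested genes (edgeR). For strain it was 4 in females and 3 in males, against 41.9% and 44.3%. Limma on log2(TPM + 0.1) called 1 for sex in B6 and 2 in C3. The median of this list was 0.04 and 0.07 for sex and -0.15 and -0.09 for strain.

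Markers of stellate cells, of fibroblasts and smooth muscle and of sinusoidal endothelium had higher summed levels in females, as did those of Kupffer cells and hepatocytes below. The summed TPM of 10 stellate cell markers ran from 232 to 264 in B6 females and from 163 to 187 in B6 males, and from 213 to 255 and 168 to 215 in C3. The summed level of 10 fibroblast and smooth muscle markers was 43.1 to 58.7 in B6 females against 25.0 to 37.4 in B6 males, and 41.1 to 85.2 against 26.1 to 38.6 in C3, most of it *Gas6*, the only one of its 8 tested genes to be called (0.98 ± 0.14, adjusted p = 4.8e-05 in B6 and 1.11 ± 0.14, adjusted p = 1.5e-05 in C3, edgeR). The median log2 fold change of the 8 for sex was 0.17 in B6 and 0.83 in C3. By edgeR, 1 of 8 in B6 and 6 of 8 in C3 had an unadjusted p under 0.05. The shares of all tested genes were 44.4% and 49.0%. For 10 sinusoidal endothelial markers the summed level was 382 to 463 against 288 to 338 in B6 and 338 to 395 against 266 to 318 in C3. The ranges of females and males met only for the stellate markers in C3, and *Col5a3* and *Col27a1* were higher in males. On this scale the median of all genes was shifted to the female side by 0.11 in B6 and 0.12 in C3 (log2). EdgeR called none of the 10 stellate and 10 endothelial markers for sex, as did DESeq2, but in B6 9 and 9 of them, and in C3 6 and 8, had an unadjusted p under 0.05, against 44.4% and 49.0% of all tested genes, and limma on log2(TPM + 0.1) called 3 and 1 in B6 and 2 and 1 in C3. Their part in the differences of collagen genes was not tested.

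Between the strains, *Rgs5* (females 1.07 ± 0.08, adjusted p = 6.2e-09, males 1.44 ± 0.08, adjusted p = 1.4e-10, edgeR) and, in females, *Ngfr* were the stellate markers that were called, both higher in C3. The median log2 fold change of the 10 stellate markers lay on the B6 side, at -0.3 in females and -0.19 in males. By edgeR, 8 of 10 in females and 7 of 10 in males had an unadjusted p under 0.05. The shares of all tested genes were 41.9% and 44.3%. In females *Lyve1* was the called endothelial marker, lower in C3 (-0.98 ± 0.19, adjusted p = 0.00055, edgeR). The 8 tested fibroblast and smooth muscle markers had a median of -0.08 in females and -0.73 in males. EdgeR called none of these 8, with 3 in females and 5 in males at an unadjusted p under 0.05. All tested genes reached that in 41.9% and 44.3%. DESeq2 called 1 in males. Of 6 Kupffer cell markers, edgeR called 3 lower in C3 females and 2 in C3 males, against 4.77% and 5.55% of all tested genes. *Vsig4* was the 1 of 6 called female-biased, in both strains, against 3.23% and 4.11% of all tested genes. For sex DESeq2 called 1 in B6 and 0 in C3, and limma on log2(TPM + 0.1) 2 and 1. All 6 had an unadjusted p under 0.05 for sex in both strains, against 44.4% and 49.0% of all tested genes (edgeR). The summed TPM of the Kupffer cell markers was 345 to 474 and 207 to 325 in B6 females and males, and 239 to 358 and 148 to 223 in those of C3. Of 6 hepatocyte markers, edgeR called only *Apoa1*, higher in C3 in both sexes. Their summed TPM, most of it *Alb*, was 103718 to 134371 in B6 females and 77443 to 103086 in B6 males. In C3 the sum was 143585 to 172113 in females and 106531 to 133375 in males, and these levels marked the tissue as liver. The median of the 6 for sex was on the male side, -0.2 in B6 and -0.28 in C3. By edgeR, 4 of 6 in B6 and 6 of 6 in C3 had an unadjusted p under 0.05. All tested genes reached it in 44.4% and 49.0%. Limma on log2(TPM + 0.1) called 1 for sex in each strain. Of 6 tested bile duct markers, edgeR called *Sox9*, higher in males of both strains and in C3 females than in B6 females. The median of the 6 went the other way for sex in C3 (0.46, the female side) and was 0.06 in B6. For strain it was -0.04 in females and -0.38 in males. The summed TPM of the 8 listed was 30.2 to 54.6 in B6 females and 39.7 to 52.2 in B6 males. In C3 it was 34.4 to 52.1 in females and 22.2 to 33.2 in males. Mesothelial markers summed to between 1.59 and 4.77 TPM, and *Krt14* among them did not exceed 3 counts in any library. EdgeR called none of the 5 tested, and DESeq2 none of 6. By edgeR, 2 of 5 had an unadjusted p under 0.05 for sex in each strain, against 44.4% and 49.0% of all tested genes. For strain it was 1 in females and 0 in males, against 41.9% and 44.3%. Limma on log2(TPM + 0.1) called 1 for strain in females. It had 4 of 5 under an unadjusted p of 0.05 for sex in C3, against 6717 of 13704 genes.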

How the data were processed

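The sources were liver RNA-seq tables of 20 mice. The deposited count table, not normalized by the authors, holds read pairs per gene, made by trimming with Cutadapt 1.9.1, alignment to mm9 with STAR 2.5.1b and counting on RefSeq genes with featureCounts (Subread 1.5.0-p1), without read pairs of several places or genes. A TPM table was deposited as well, whose gene length is not given in the sources used here. Header names of symbol and identifier are exchanged in the tables, which were read by content.

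For the tests, edgeR 4.0.16 was run under R 4.3.3 (filterByExpr, TMM, quasi-likelihood fit of group and pool over all 20 libraries), with Benjamini-Hochberg adjustment over 13704 genes. The study itself used DESeq2. The thresholds follow the study's. Alternatives were DESeq2 1.42.0, limma 3.58.1 on log2(TPM + 1) and log2(TPM + 0.1), glmTreat, other normalizations, filters and covariates, a replicate block, and each liver left out. Correlations used scipy 1.17.1 and log2 CPM with a prior count of 2. The limit that a count of 0 allows was set at 3 counts per library and covers counting error only, since PCR reads without molecular identifiers are not independent molecules.

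The members, gene lists and tests were chosen with earlier results of these data known. Values in every liver are given for each collagen gene called in at least 1 comparison and for the 8 with the highest mean TPM, 19 in all, and for *Col1a1*, named after its values were seen. Of each other list, called genes with the smallest adjusted p are named, at most 4 per comparison. The lists cover collagen synthesis, breakdown and receptors, matrix proteins, the TGF-beta pathway, and markers of stellate cells, fibroblasts and smooth muscle, endothelium, bile ducts, mesothelium, Kupffer cells and hepatocytes. The 5 mice of a group are separate animals. Replicate numbers name mice and do not pair them.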

Additional observations from a re-analysis of the deposited data

Results flagged for a closer look

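Within groups of 5 livers, the highest or lowest CPM was tested with Dixon's ratio for a gap to the nearest other liver, in 76 groups (19 genes in 4 groups). Chance sets apart about 1 in 20 groups, or 3.80 of 76, and 4 were found. *Col11a2* was at 1.18 CPM in B6 male 3, with the nearest other liver at 0.545 CPM. *Col14a1* was at 99.7 CPM in B6 female 5, with the nearest at 116.6 CPM. *Col15a1* was at 8.52 CPM in C3 male 2, with the nearest at 5.76 CPM. *Col5a2* was at 5.86 CPM in C3 female 4, with the nearest at 3.93 CPM. The 4 values came from 4 different livers and 4 different groups.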

How the results depend on the processing

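With 5 livers per group and collagen genes of a few CPM, calls near the thresholds moved with the fit. Of the 25 calls, DESeq2 and the 2 other filters on low counts kept all 25. Upper quartile normalization and glmTreat each lost 2, DESeq2's size factors 1, limma on log2(TPM + 0.1) 3, the fit of the 2 groups alone 9, the fit without the pool term 11, and limma on log2(TPM + 1), which shrinks genes of low TPM, 12. In all 20 fits that left out 1 liver, the same 13 calls were kept, and none of the 25 calls changed direction in any setting.

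At an adjusted p of 0.05 with no limit on size, 9 members were called for sex in B6 (34.6% of all tested genes), 16 in C3 (40.0%), 18 for strain in females (32.9%), 18 in males (34.5%) and 1 in the interaction (2.96%). Without the pool term the count was 2 for sex in C3 and 4 for strain in males. That fit called 482 and 881 of 13704 genes there, against 945 and 1321 with the pool term. DESeq2, which ran without the filter on low counts, called 8 and 13 of 44 members there, and 1378 and 1676 of 16224 genes. Limma on log2(TPM + 1) called 3 members for strain in males, and 1096 of 13704 genes. The fits without 1 liver gave 2 to 3 for sex in B6, 2 to 6 in C3, 6 to 10 for strain in females, 4 to 10 in males and 0 throughout in the interaction. Over all 13704 tested genes, these fits called 695 to 897 for sex in B6 and 661 to 1107 in C3. For strain they called 1146 to 1298 genes in females and 1100 to 1357 in males, and 32 to 54 in the interaction. The count moved by over 1.5 times for sex in C3 without C3 female 1 or C3 male 4, and for strain in males without B6 male 1, 2, 3 or 4 or C3 male 2, 3 or 5. The causes were not tested.

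Replicate numbers did not pair the livers: with pool removed, the mean correlation of same-numbered livers was 0.10, -0.013, 0.064 and 0.010 in the 4 comparisons. With the replicate block, 2, 7, 9 and 7 members were called for sex in B6 and C3 and strain in females and males, and 0 in the interaction, with 19 of the 25 calls kept. Of 13704 tested genes, the block fit called 845, 933, 1222 and 1263 in these comparisons, and 40 in the interaction. The r of the pairs with the block was 0.61 for *Col1a1* with *Col1a2*, 0.61 for *Col1a1* with *Col3a1*, -0.20 for *Col5a1* with *Col5a2*, 0.96 for *Col4a1* with *Col4a2* and 0.59 for *Col6a1* with *Col6a2*.

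With the pool means kept, r was 0.11 for *Col5a1* with *Col5a2*, a change of sign, and 0.40 for *Col4a1* with *Col4a2* (adjusted p = 0.094, permutation test). Without 1 liver, r ran from 0.72 to 0.83 for *Col1a1* with *Col1a2*, 0.75 to 0.88 for *Col1a1* with *Col3a1*, -0.25 to 0.14 for *Col5a1* with *Col5a2*, 0.76 to 0.86 for *Col4a1* with *Col4a2* and 0.77 to 0.89 for *Col6a1* with *Col6a2*.

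Of 76 fold changes of named genes, 7 changed sign in some setting, and none of these 7 was among the 25 calls. For sex in B6, *Col11a2* (-0.06) was 0.01 with upper quartile normalization, 0.01 and 0.05 on log2(TPM + 1) and log2(TPM + 0.1), and -0.22 to 0.18 without 1 liver. *Col15a1* (-0.01) was 0.05 with upper quartile normalization, 0.09 without the pool term, 0.07 and 0.07 on TPM, and -0.23 to 0.19 without 1 liver. *Col4a1* (-0.07) was 0.04 and 0.05 on TPM, and *Col6a6* (0.16) was -0.26 to 0.38 without 1 liver. *Col25a1* (0.09 for sex in C3) was -0.06 to 0.17 without 1 liver. For strain in males, *Col13a1* (-0.08) was -0.18 to 0.02 without 1 liver, and *Col4a2* (-0.05) was 0.0041 without the pool term and -0.17 to 0.04 without 1 liver. Scaling also moved the balance of all called genes: for sex in B6, 442 were higher in females and 427 in males, against 588 and 327 with upper quartile normalization and 704 and 268 on log2(TPM + 0.1), and in C3 563 and 382 against 722 and 310, and 876 and 239.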
